A study of Mus musculus with 12 samples.

Results

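The genes that receive and end the acetylcholine signal in the brain were followed across the cortex and cerebellum of SCA1 KI and WT mice. They are the muscarinic receptor genes Chrm1, Chrm2, Chrm3 and Chrm4, the nicotinic subunit genes Chrna4, Chrna7 and Chrnb2, and Ache, which encodes acetylcholinesterase. The genes were chosen by symbol, with earlier results of these data known. All 8 were found among the 15759 rows of a table of normalized read counts per gene. Poly-adenylated RNA had been sequenced from whole tissue at 12 weeks of age from 4 groups of 3 libraries each, 12 libraries in all, that combine region and genotype. SCA1 KI mice, a model of spinocerebellar ataxia type 1, have 1 Atxn1 allele with 154 and 1 with 2 glutamine codons (154Q/2Q), both at the endogenous locus, so that every cell that expresses Atxn1 carries the expansion, and their controls were WT littermates of the same C57BL/6J background. The cortical libraries were named B, C and D for WT and A, E and F for SCA1 KI, and the cerebellar libraries 2, 4 and 6 for WT and 1, 3 and 5 for SCA1 KI. Nothing in these names tied a library of one group to a library of another, and p-values measure only the spread between these libraries.

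Acetylcholine reaches the cortex mainly from neurons of the basal forebrain and the cerebellum from neurons of the brainstem, and it acts on receptors of several classes. The products of Chrm1 and Chrm3 couple to Gq proteins, activate phospholipase C and close the M-type potassium channels built from Kcnq subunits. The products of Chrm2 and Chrm4 couple to Gi and Go proteins, which open inwardly rectifying Kcnj channels and restrain transmitter release. Nicotinic receptors are cation channels made of subunits, of which Chrna4 and Chrnb2 form the most common mixed receptor of the brain and Chrna7 a receptor of its own, and acetylcholinesterase breaks the transmitter down in the synaptic cleft.

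The stretches just upstream of the RefSeq starts of 4 of these genes are shown as examples from both directions, since Chrm3 and Chrm4 lay lower and Chrnb2 and Ache higher in every SCA1 KI library than in every WT library of the cortex, as Chrna4 and Chrna7, not printed, also lay lower. They are the parts free of annotated exons within the 250 bases before the RefSeq start of each gene (GRCm38.p6), read in the direction of the gene. The gene positions given further below are those of GENCODE vM21. By these, the stretch of Ache lies inside the gene and that of Chrm4 well before it. Capitals mark GC boxes (GGGCGG), sites of the EGR factors (GCGGGGGCG or GCGTGGGCG) and the E-box CAGGTG. The stretch of Ache is chr5:137288058-137288253 on the plus strand, that of Chrnb2 is chr3:89764633-89764882 on the minus strand, that of Chrm3 is chr13:10360848-10361053 on the minus strand, and that of Chrm4 is chr2:91921939-91922188 on the plus strand.
Ache: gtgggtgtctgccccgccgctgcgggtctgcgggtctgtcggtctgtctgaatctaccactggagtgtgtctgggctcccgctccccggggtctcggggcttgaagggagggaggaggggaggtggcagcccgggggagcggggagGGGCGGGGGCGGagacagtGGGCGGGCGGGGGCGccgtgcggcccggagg
Chrnb2: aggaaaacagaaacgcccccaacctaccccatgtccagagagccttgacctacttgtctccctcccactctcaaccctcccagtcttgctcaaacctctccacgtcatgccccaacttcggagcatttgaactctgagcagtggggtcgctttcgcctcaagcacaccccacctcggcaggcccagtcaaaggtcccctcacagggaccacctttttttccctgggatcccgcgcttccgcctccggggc
Chrm3: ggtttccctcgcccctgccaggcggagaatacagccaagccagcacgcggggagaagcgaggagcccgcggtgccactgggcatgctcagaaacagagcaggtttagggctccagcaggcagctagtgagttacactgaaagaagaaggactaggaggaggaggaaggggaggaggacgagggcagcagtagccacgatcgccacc
Chrm4: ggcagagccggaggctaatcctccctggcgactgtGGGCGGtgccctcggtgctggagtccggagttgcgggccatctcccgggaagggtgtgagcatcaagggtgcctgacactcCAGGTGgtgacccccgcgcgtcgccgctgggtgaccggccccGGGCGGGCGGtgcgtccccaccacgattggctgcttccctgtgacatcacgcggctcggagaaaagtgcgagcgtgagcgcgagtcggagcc
A RefSeq start was at hand for 7 of the 8 genes. Searched on both strands over the whole 250 bases, GC boxes lay upstream of 5 of the 7 (Chrm2, Chrm4, Chrna4, Chrna7 and Ache), against 32.9% of 27025 promoters of the same length. The EGR site lay upstream of Ache (2 sites) and Chrna7 (1 site), and in Ache it overlaps the GC boxes, against 3.05% of all promoters. The octamers TCAATGAA, TGAATGAA, TCAATGGA and TGAATGGA, bound by Capicua, a repressor with which ataxin-1 forms a complex, were in 0 of the 7 and in 3.24% of all promoters. The CRE (TGACGTCA, 1.62% of all promoters) and, on the strand of the gene, TATAAA (8.12%) were also in 0 of the 7, and the E-box (17.1%) was upstream of Chrm4. Such matches describe letters only and do not show where a factor binds.

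Reads on genes numbered 34103546 to 39927889 in the cortical and 29520855 to 51311309 in the cerebellar libraries. The labelled tissues were borne out by their markers, since Gabra6, a granule cell gene, lay between 20711 and 32164 normalized counts in the cerebellum and between 0 and 42.1 in the cortex, and Fezf2, a gene of deep-layer cortical projection neurons, between 514 and 1139 in the cortex and between 0 and 1.16 in the cerebellum. The labels of the knock-in could not be checked by expression, because an expanded allele is still transcribed, and Atxn1 did not pass the test in the cortex (LFC −0.31, adjusted p = 0.132) or in the cerebellum (LFC 0.08, adjusted p = 0.837). Differences are given as log2 fold changes (LFCs) of the normalized count + 1, SCA1 KI against WT, from limma on all 12 libraries. DEGs were the genes with an LFC over 0.25 in size and a p, adjusted after Benjamini and Hochberg, under 0.05. The median LFC over all tested genes was −0.0028 in the cortex and −0.0049 in the cerebellum. In whole tissue, fewer cells of a type and less RNA per cell cannot be told apart.

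In the SCA1 KI cortex the genes of the cholinergic synapse moved in both directions. Acetylcholinesterase rose 1.54-fold and the nicotinic subunit Chrnb2 rose 1.21-fold, whereas Chrm3 fell to 0.516 and Chrm1 to 0.65 of its WT level. DEGs thus made up 4 of the 8 genes, 2 higher and 2 lower, against 15.6% of the 15369 genes tested (4.82% higher and 10.8% lower). SCA1 KI and WT libraries did not overlap for 7 of the 8 genes, 5 lower and 2 higher, against 30.9% of all genes (18% lower and 13% higher). Chrm2 was the gene that overlapped. Because the 8 genes and the lists further below were chosen with earlier results known, such shares are a description and not a test.

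**Figure D1:**
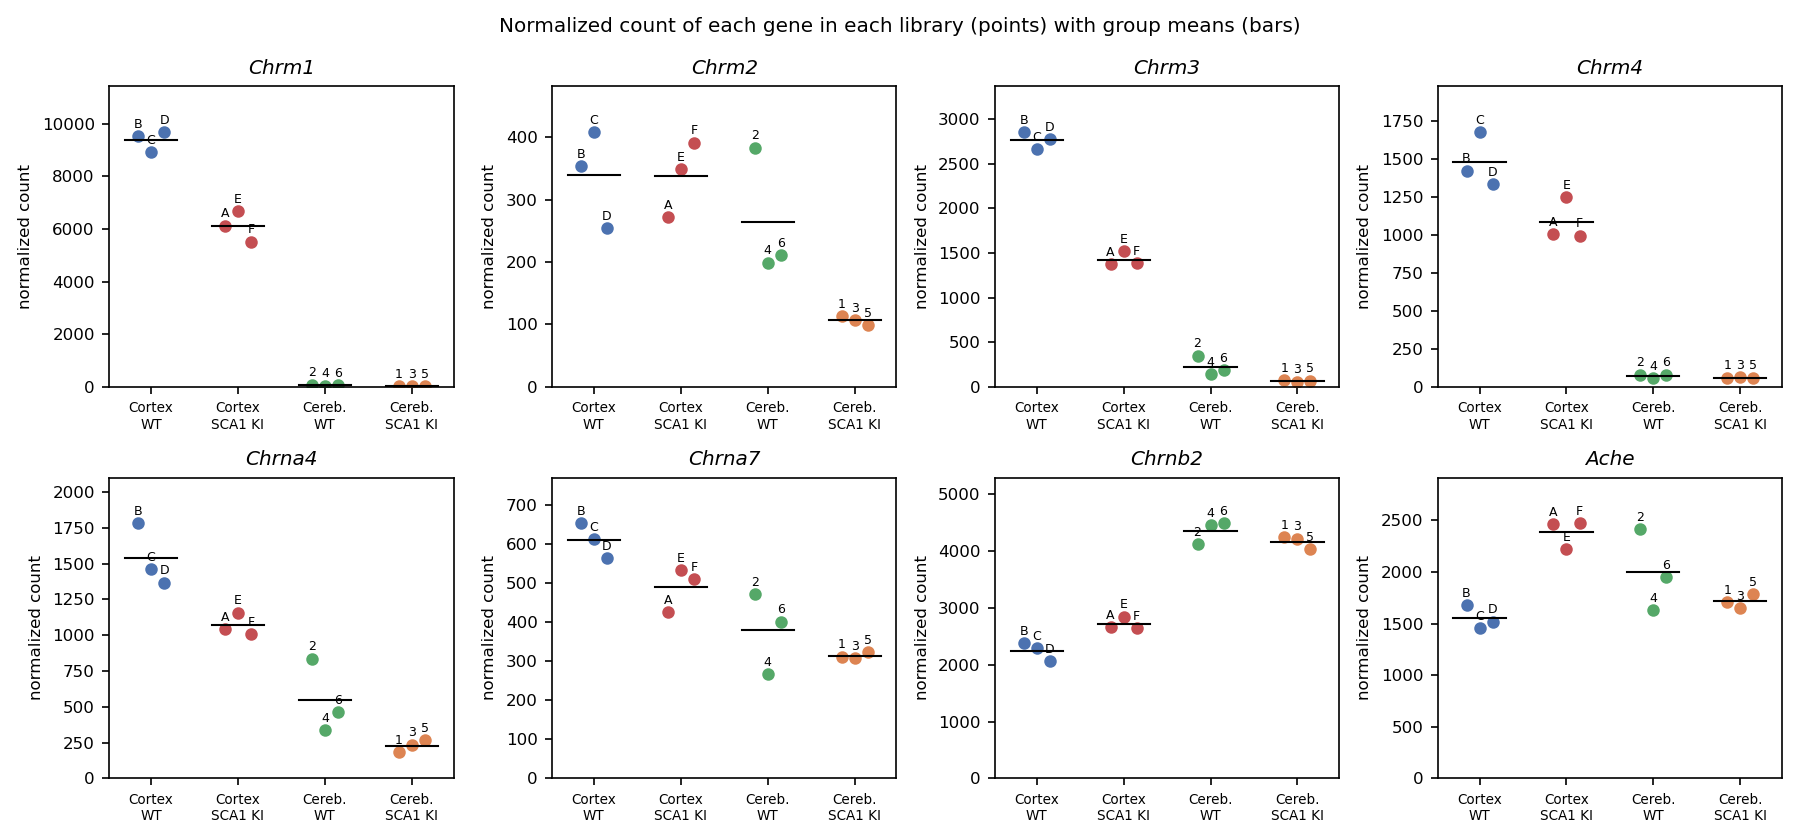
Normalized counts (vertical axes, linear and starting at 0) of the 8 genes in each of the 12 libraries, with 1 panel per gene, points for libraries labelled by their letter or number and bars for the mean of the 3 libraries of a group. In the cortex the SCA1 KI points of Chrm1, Chrm3, Chrm4, Chrna4 and Chrna7 lie under all WT points and those of Chrnb2 and Ache above them, and in the cerebellum the SCA1 KI points of Chrm1, Chrm2, Chrm3 and Chrna4 lie under all WT points.

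Chrm1, the main muscarinic receptor gene of cortical pyramidal neurons, had 9526, 8914 and 9693 normalized counts in WT cortex libraries B, C and D and 6129, 6676 and 5520 in SCA1 KI libraries A, E and F. All 3 SCA1 KI libraries were lower than all 3 WT libraries. The LFC of −0.62 (SE 0.20, adjusted p = 0.0499) lay at the edge of the threshold, and its adjusted p ranged from 1.28e-06 to 0.121 over 10 alternative settings, of which 5 did not call it. It was also not called in 9 of the 12 fits that each left out 1 library, with an adjusted p of up to 0.134. The gene lies on chromosome 19 from 8663789 to 8683587 (GRCm38, plus strand).

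Chrm3, the other Gq-coupled receptor gene, had 2857, 2666 and 2776 normalized counts in WT cortices and 1373, 1518 and 1388 in SCA1 KI cortices. Its highest SCA1 KI library thus stayed well under its lowest WT library. The LFC was −0.96 (SE 0.24, adjusted p = 0.0152), the largest fall among the 8 genes in the cortex, and it was called in all alternatives tried apart from the limit of 1 on the absolute LFC. The gene spans chromosome 13 from 9875486 to 10360847 (minus strand).

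The Gi-coupled receptor genes differed from each other in the cortex. Chrm4 had 1425, 1681 and 1337 normalized counts in WT and 1007, 1251 and 997 in SCA1 KI libraries, so that the genotypes did not overlap. Its LFC of −0.45 (SE 0.15, adjusted p = 0.0504) did not pass the threshold by a small margin and passed it in 5 of 10 alternative settings, edgeR (adjusted p = 0.0187) and DESeq2 (0.00529) among them. Chrm2, an autoreceptor of cholinergic terminals, had 354, 409 and 254 normalized counts in WT and 272, 349 and 391 in SCA1 KI libraries. These groups overlapped over nearly their whole range, and the LFC of 0.0052 had a 95% interval from −0.51 to 0.52, which leaves room for a change of that size in either direction. Exons of Chrm2 (chromosome 6 from 36388084 to 36528414, plus strand) overlap the antisense gene 9330158H04Rik, and the strand setting of the counting is not given in the sources used here.

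Among the 3 nicotinic subunits, Chrnb2 was the DEG of the cortex. It had 2386, 2294 and 2060 normalized counts in WT cortices and 2668, 2850 and 2644 in SCA1 KI cortices, with no overlap. The LFC was 0.28 (SE 0.065, adjusted p = 0.0104), close to the limit of 0.25, under which it fell without WT library D (0.22) or without SCA1 KI library E (0.24). Its adjusted p was 0.0643 when the cortex was fitted on its own. Chrnb2 (chromosome 3 from 89746195 to 89764632, minus strand) shares exonic bases with Adar on the other strand.

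Chrna4, which joins Chrnb2 in the mixed receptor, had 1780.1, 1463 and 1366 normalized counts in WT and 1042, 1158 and 1007 in SCA1 KI cortex libraries. All SCA1 KI libraries were lower, but the LFC of −0.52 (SE 0.25) did not pass the threshold (adjusted p = 0.188). When the cortex was fitted on its own the adjusted p was 0.0205, and it was 0.0348 when cerebellar WT library 2, the cerebellar library with the most Chrna4, was left out. Chrna7 had 654, 612 and 564 normalized counts in WT and 426, 533 and 511 in SCA1 KI libraries, again without overlap, with an LFC of −0.32 (SE 0.17, adjusted p = 0.223) that did not pass either. Chrna4 lies on chromosome 2 from 181018380 to 181043546 (minus strand) and Chrna7 on chromosome 7 from 63098692 to 63212569 (minus strand).

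Ache had 1679, 1456 and 1519 normalized counts in WT cortex libraries B, C and D and 2467, 2224 and 2471 in SCA1 KI libraries A, E and F. The lowest SCA1 KI library was thus above the highest WT library. With an LFC of 0.62 (SE 0.11, adjusted p = 0.00241), Ache had the smallest adjusted p of the 8 genes in the cortex, and it stayed called in all 12 fits without a library, where the LFC ranged from 0.58 to 0.68. The limit of 1 on the absolute LFC was the only alternative under which it was not a DEG. Ache lies on chromosome 5 from 137287519 to 137294466 (plus strand).

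Markers of several cell types and tissues differed between the genotypes in the cortex, where 10.8% of all genes were called lower and 4.82% higher. The summed normalized counts of 8 markers of cortical excitatory neurons lay between 88901 and 91237 in WT and between 60128 and 71075 in SCA1 KI libraries. Of these 8, 3 (Slc17a7, Cux2 and Rorb) were DEGs, all lower. Astrocyte markers summed to between 54658 and 61210 in WT and between 37706 and 47675 in SCA1 KI libraries, and 4 of the 6 (S100b, Slc1a3, Aqp4 and Aldh1l1) were DEGs, all lower. Of 6 Purkinje cell markers, Pvalb, Car8, Calb1 and Itpr1 were DEGs with lower and Slc1a6 with higher counts. The cortex also expresses these genes, while Pcp2 had means of 9.88 normalized counts in WT and 0.638 in SCA1 KI cortices. Hippocampal markers summed to between 4996 and 6637 in WT and between 2322 and 3871 in SCA1 KI libraries, with 1 of 6 (Wfs1) lower. The summed counts of 9 striatal markers ranged from 13323 to 27561 in WT and from 8743 to 15869 in SCA1 KI libraries, with 2 of 9 (Ppp1r1b and Penk) lower, and those of 7 midbrain markers from 166 to 290 in WT and from 555 to 1216 in SCA1 KI libraries, with 2 of the 6 tested higher. The 2 midbrain DEGs were Tal1 (means of 121 in WT and 666 in SCA1 KI) and En1 (1.11 and 17.2). Markers of the thalamus and habenula summed to between 2139 and 2326 in WT and between 2420 and 3551 in SCA1 KI libraries, with 3 of 8 higher and 5 not called. Of the 3, Pou4f1 had means of 4.20 in WT and 271 in SCA1 KI and Lhx9 17.6 and 82.3, and Shox2 was at 0 in all WT cortex libraries. Markers of cholinergic neurons (4 in the table, Chat among them) summed to between 78.6 and 160 in WT and between 60.1 and 244 in SCA1 KI libraries, and 0 of the 3 tested were DEGs by limma, edgeR or DESeq2 (1 had an unadjusted p under 0.05). The part of these tissues and cells in the cholinergic differences was not tested. WT library B had the highest striatal sum of the cortex, SCA1 KI library F the highest thalamus and habenula and the highest midbrain sum of the cortex, and WT library 2 the highest thalamus and habenula sum of the cerebellum. Without these 3 libraries, Ache (LFC 0.66), Chrnb2 (0.34) and Chrm3 (−0.91) were still DEGs, and Chrm1 (−0.54, adjusted p = 0.0702) was not.

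**Figure D2:**
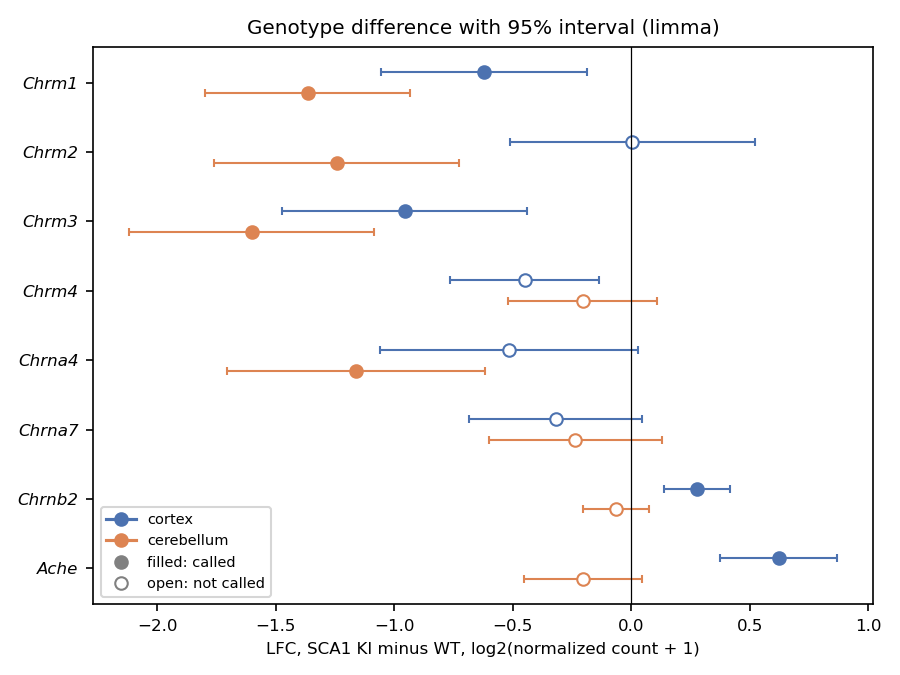
LFC of SCA1 KI against WT (horizontal axis, log2 scale) of the 8 genes in the cortex and in the cerebellum, with lines for the 95% interval of limma, filled points for DEGs and open points for genes that were not. Ache and Chrnb2 lie to the right of 0 in the cortex (0.62 and 0.28), and Chrm1, Chrm2, Chrm3 and Chrna4 lie far to the left in the cerebellum (−1.37, −1.24, −1.60 and −1.16).

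In the SCA1 KI cerebellum 4 receptor genes fell, to between 0.33 (Chrm3) and 0.447 (Chrna4) of their WT level, while 0 of the 8 genes were called higher by limma, edgeR or DESeq2, and 0 had an unadjusted p under 0.05 for a rise. The DEGs were Chrm1, Chrm2, Chrm3 and Chrna4, 4 of the 8 genes, against 5.36% of all genes tested (4.44% lower and 0.917% higher). Their libraries did not overlap between the genotypes, with all of SCA1 KI lower (31.8% of all genes did not overlap, 17.5% lower and 14.3% higher), and those of the other 4 genes did.

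Chrm3 had 349, 139 and 185 normalized counts in WT cerebellum libraries 2, 4 and 6 and 75.8, 58.4 and 70.7 in SCA1 KI libraries 1, 3 and 5. WT library 2 stood highest, and all WT libraries were above all SCA1 KI libraries. The LFC was −1.60 (SE 0.24, adjusted p = 0.00183). Chrm1 was near the lower end of detection, with 82.2, 41.5 and 52.4 normalized counts in WT and 18.5, 26.8 and 19.4 in SCA1 KI libraries, from 20 to 90 reads in a library. Its LFC was −1.37 (SE 0.20, adjusted p = 0.00165).

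Chrm2 had 383, 199 and 211 normalized counts in WT and 114, 106 and 98.7 in SCA1 KI cerebellum libraries, with an LFC of −1.24 (SE 0.24, adjusted p = 0.00873). Chrna4 had 835, 337 and 460.1 normalized counts in WT and 184, 235 and 266 in SCA1 KI libraries, with an LFC of −1.16 (SE 0.25, adjusted p = 0.0165). For both genes WT library 2 was the highest and the genotypes did not overlap. Chrna4 was not called without SCA1 KI library 1 (adjusted p = 0.0853) or 3 (0.0529), or with the cerebellum fitted on its own (0.0702).

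Chrnb2 and Ache, the most highly expressed of the 8 genes in the cerebellum, did not pass the test there. Chrnb2 had 4128, 4461 and 4490 normalized counts in WT and 4245, 4224 and 4036 in SCA1 KI libraries, with an LFC of −0.064 (95% interval −0.20 to 0.077, adjusted p = 0.703). Ache had 2418, 1633 and 1950 normalized counts in WT and 1710, 1651 and 1787 in SCA1 KI libraries, with an LFC of −0.20 (95% interval −0.45 to 0.044, adjusted p = 0.404). The intervals of both genes exclude a rise of the size seen in the cortex.

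Chrm4 had 79.4, 56.2 and 79.2 normalized counts in WT and 60.7, 63.2 and 60.0 in SCA1 KI cerebellum libraries, with an LFC of −0.20 (95% interval −0.52 to 0.11, adjusted p = 0.543). Chrna7 had 473, 266 and 402 normalized counts in WT and 312, 308 and 323 in SCA1 KI libraries, with an LFC of −0.24 (95% interval −0.60 to 0.13, adjusted p = 0.543). In both genes WT library 4 was the lowest of the 6 cerebellar libraries, and without it Chrna7 was called (LFC −0.47, adjusted p = 0.0377).

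Markers of the thalamus and habenula, tissues in which several cholinergic receptor genes are abundant, moved with the cerebellar falls. The summed normalized counts of 8 such markers were 12941, 7521 and 9496 in WT libraries 2, 4 and 6 and between 3531 and 3915 in the SCA1 KI libraries. Of the 8, 6 were DEGs, all lower (4.44% of all genes were lower). Tcf7l2 lay between 1480 and 2404 in WT and between 210 and 249 in SCA1 KI libraries, and Shox2 between 119.7 and 210 in WT and between 0 and 9.68 in SCA1 KI libraries. The 7 midbrain markers summed to between 1463 and 1664 in WT and between 982 and 1216 in SCA1 KI libraries, and 3 of the 6 tested were DEGs, all lower. The order of the WT libraries by the thalamic sum, library 2 above 6 above 4, was also their order for Chrm1, Chrm2, Chrm3 and Chrna4, and for Chrm4, Chrna7 and Ache, which were not called, but not for Chrnb2. It was the order of some other marker sums as well, with 266831, 198047 and 178046 in libraries 2, 6 and 4 for oligodendrocytes, 6093, 4977 and 4721 for microglia, 12813, 11079 and 10583 for forebrain interneurons and 199, 19.8 and 14.7 for cholinergic neurons. Sums of granule cell (115555, 158570 and 169300) and Purkinje cell markers (283163, 336328 and 354842) ran in the reverse order, lowest in library 2. The remaining marker lists did not follow the thalamic order either.

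Some other marker lists were lower in the SCA1 KI cerebellum too, where 4.44% of all genes were called lower and 0.917% higher. Markers of cortical excitatory neurons summed higher, to between 16110.5 and 20816 in WT and between 21428 and 23286 in SCA1 KI libraries. Of these 8, Tbr1 was called higher and Rorb and Foxp2 lower. Hippocampal markers summed to between 3884 and 4149 in WT and between 4126 and 4481 in SCA1 KI libraries, with 1 of 6 (Fibcd1) lower. Oligodendrocyte markers summed to between 178046 and 266831 in WT and between 152414 and 152494 in SCA1 KI libraries, while 0 of 6 were called by limma or edgeR and 3 by DESeq2, and 5 had an unadjusted p under 0.05 in limma. Astrocyte markers summed to between 115740 and 117473 in WT and between 104890 and 108352 in SCA1 KI libraries, with 1 of 6 (Aldh1l1) lower. The interneuron genes Vip (LFC −5.47) and Sst (−3.29), 2 of 6 on their list, and Tac1 (−4.02), 1 of 9 striatal markers, were DEGs, all lower. The part of these tissues and cells in the falls was not tested. Without WT library 2 the LFCs moved to −1.10 (Chrm1), −0.94 (Chrm2), −1.23 (Chrm3) and −0.80 (Chrna4), and the 4 genes were still DEGs. Among markers of the cerebellum's own neurons, 0 of 6 Purkinje cell markers and 0 of 6 granule cell markers were called by limma or edgeR in either direction. DESeq2 called 1 Purkinje cell marker and 0 granule cell markers, and 2 and 0 had an unadjusted p under 0.05 in limma. Purkinje cell markers summed to between 283163 and 354842 in WT and between 260913 and 292155 in SCA1 KI libraries. Markers of the choroid plexus, which lies beside the cerebellum, ranged from 825 to 75606 among the SCA1 KI libraries alone, and 0 of 6 were called by any of the tools or had an unadjusted p under 0.05.

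**Figure D3:**
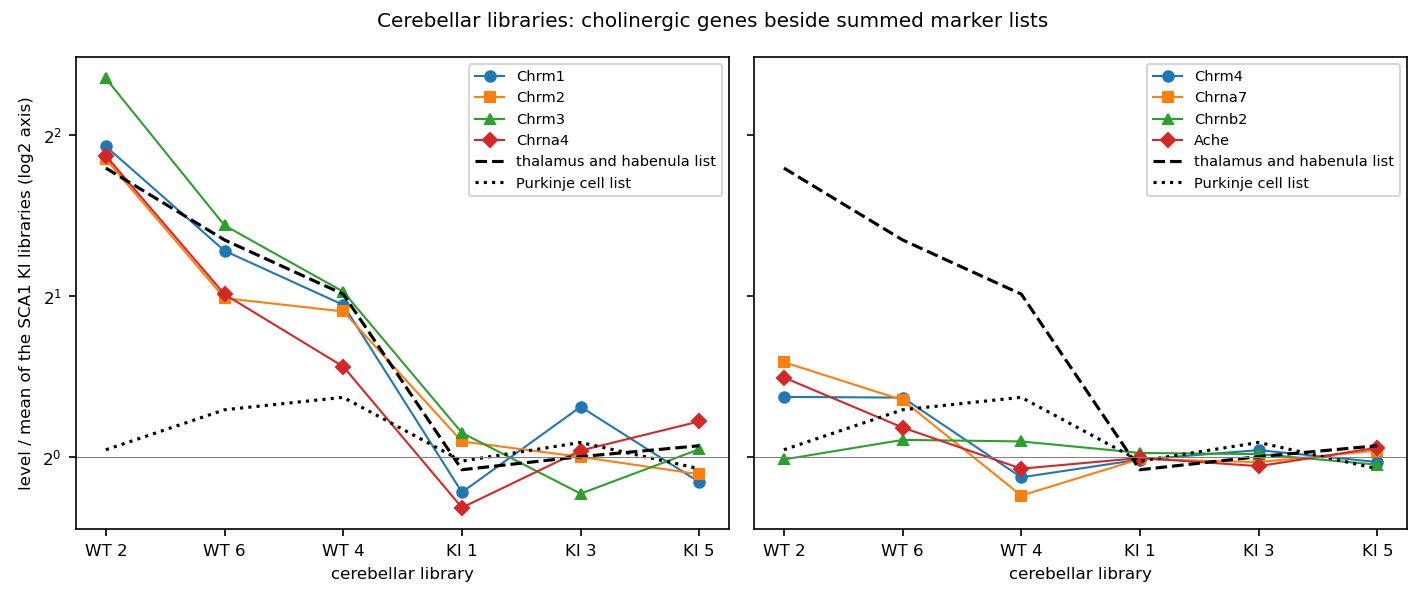
Normalized counts of Chrm1, Chrm2, Chrm3 and Chrna4 (left) and of Chrm4, Chrna7, Chrnb2 and Ache (right) in the 6 cerebellar libraries, each divided by its mean over the SCA1 KI libraries (vertical log2 axis), beside the summed thalamus and habenula markers (dashed) and Purkinje cell markers (dotted). WT libraries are placed by the thalamus and habenula sum (12941, 9496 and 7521 in libraries 2, 6 and 4), and the 4 genes on the left stand in the same order, with every WT library above every SCA1 KI library.

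The effects of the genotype in the 2 regions were compared with each other by the interaction term of the same fit, the cortical LFC minus the cerebellar LFC. It passed at an adjusted p under 0.05 for 3 of the 8 genes, all 3 positive, against 8.15% of all genes tested (3.26% positive and 4.89% negative). Ache differed by 0.83 (SE 0.16, adjusted p = 0.00754), with a rise in the cortex and no called change in the cerebellum, and it passed in all 12 fits without a library. Chrnb2 differed by 0.34 (SE 0.092, adjusted p = 0.0376) but did not pass in 9 of those 12 fits. Chrm2 differed by 1.25 (SE 0.34, adjusted p = 0.0393), as its fall was called in the cerebellum alone, but it did not pass in 8 of the 12 fits.

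For the other 5 genes limma did not call a difference between the regions. The interaction was 0.74 for Chrm1 (adjusted p = 0.144), 0.65 for Chrm3 (0.304), 0.65 for Chrna4 (0.329), −0.25 for Chrm4 (0.549) and −0.084 for Chrna7 (0.880). Chrm1 was called by DESeq2 (adjusted p = 0.0120), which called 4 of the 8 genes, and by limma without cerebellar WT library 4 (adjusted p = 0.0332).

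The cortex and the cerebellum of WT mice differed in most of these genes. On the scale of the LFC, cortex against cerebellum, Chrm1 was 7.35 higher in the cortex, Chrm4 4.36, Chrm3 3.73, Chrna4 1.59 and Chrna7 0.72, while Chrnb2 was lower (−0.96) and Ache slightly lower (−0.35, adjusted p = 0.0155). These 7 of the 8 genes were called, 5 higher and 2 lower, against 61.7% of all genes (31% higher and 30.7% lower), and Chrm2 (0.40, adjusted p = 0.161) was not. The Ache libraries of the regions overlapped in WT, and its call was lost without cortical WT library C (adjusted p = 0.0586) or cerebellar WT library 2 (LFC −0.20).

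In SCA1 KI mice 8 of the 8 genes differed between the regions, 7 higher and 1 lower in the cortex, against 62.4% of all genes (32% higher and 30.5% lower). Chrm1 was 8.10 higher in the cortex, Chrm3 4.37, Chrm4 4.12, Chrna4 2.24, Chrm2 1.64 and Chrna7 0.63, and Chrnb2 was lower (−0.62). Ache stood on opposite sides in the genotypes, higher in the cortex of SCA1 KI mice (0.48, adjusted p = 0.00243) and lower there in WT mice. These comparisons share their libraries with the comparisons of genotype above.

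Levels can be ranked between genes only per length, as reads per length of exon and depth of the library (RPKM). In the WT cortex Chrm1 stood highest with 35.8 ± 1.83 RPKM (SD, n = 3), followed by Chrm4 with 25.5 ± 2.89 and Chrm3 with 11.0 ± 0.413. Ache (8.31 ± 0.611), Chrna4 (7.57 ± 1.03) and Chrnb2 (6.64 ± 0.445) came next, and neighbours among these 3 overlapped. Chrna7 (3.35 ± 0.224) and Chrm2 (1.38 ± 0.310) closed the order. The annotated exon of Chrm4 (chromosome 2 from 91927249 to 91928688, GENCODE vM21) has 1440 bases, which is the coding sequence alone, so its level per length is not on the same footing as the others.

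In the SCA1 KI cortex Chrm1 (25.7 ± 1.90 RPKM, SD, n = 3) and Chrm4 (20.6 ± 2.23) still led, but Ache (14.1 ± 1.15) and Chrnb2 (8.87 ± 0.159) stood above Chrm3 (6.23 ± 0.209) and Chrna4 (5.81 ± 0.291), which overlapped each other. Chrna7 had 2.97 ± 0.314 and Chrm2 1.52 ± 0.278 RPKM. In the cerebellum the order was led by Chrnb2 (14.5 ± 0.410 in WT and 14.1 ± 0.338 in SCA1 KI) and Ache (12.1 ± 2.61 and 10.5 ± 0.448), whose libraries overlapped in WT and not in SCA1 KI.

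Among the less expressed genes of the WT cerebellum, Chrna4 (3.05 ± 1.51 RPKM, SD, n = 3) and Chrna7 (2.37 ± 0.685) overlapped, as did Chrm4 (1.39 ± 0.270), Chrm2 (1.23 ± 0.505) and Chrm3 (1.01 ± 0.515) as neighbours, and Chrm1 stood lowest with 0.254 ± 0.0960. In the SCA1 KI cerebellum Chrna7 (1.98 ± 0.0580) stood above Chrna4 (1.29 ± 0.241), which overlapped Chrm4 (1.21 ± 0.0317), and Chrm2 (0.499 ± 0.0332), Chrm3 (0.310 ± 0.0405) and Chrm1 (0.0944 ± 0.0199) followed without overlap.

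**Figure D4:**
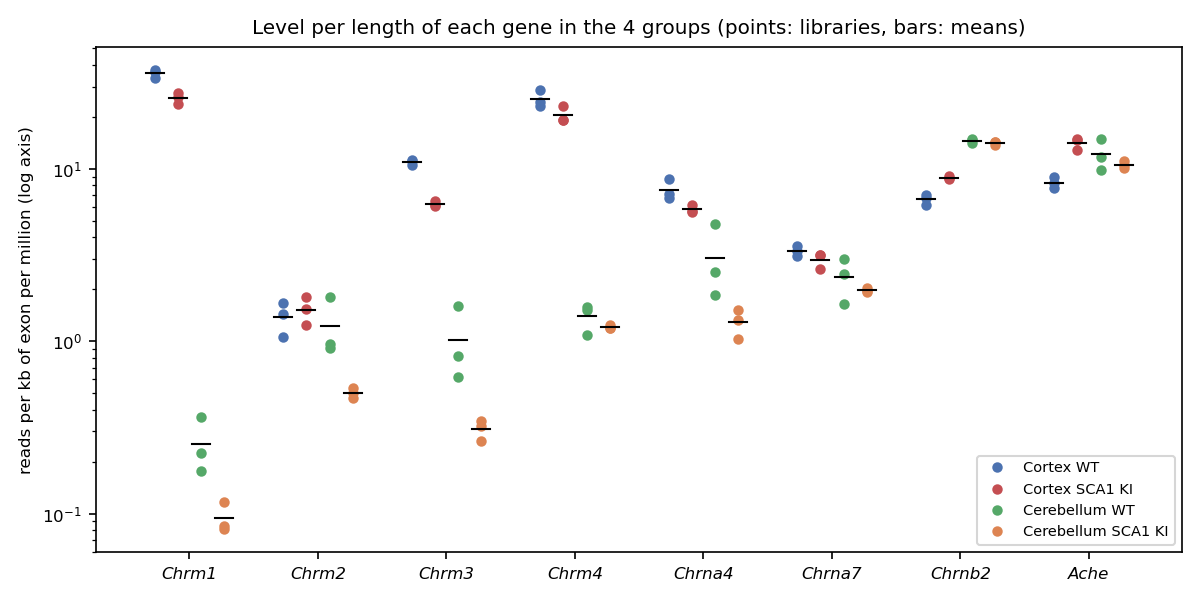
Mean RPKM (log axis) of the 8 genes in the 4 groups, with points for single libraries. Chrm1 runs from 35.8 in the WT cortex to 0.0944 in the SCA1 KI cerebellum, whereas Chrnb2 and Ache lie between 6.64 and 14.5 in all 4 groups.

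Genes of the wider cholinergic system, listed by role without the 8 genes above, fell or did not pass the test. Of 44 listed genes 39 were in the table and 37 were tested, of which 14 were DEGs in the cortex, all lower (10.8% of all genes were lower), with a median LFC of −0.46 over the 37. In the cerebellum 9 were DEGs, all lower (4.44% of all genes), with a median LFC of −0.18. Higher levels were called for 0 of the 37 genes in either region by limma and edgeR and for 1 by DESeq2 in the cerebellum, while 3 in the cortex and 4 in the cerebellum had a positive LFC with an unadjusted p under 0.05 in limma. Without 1 library the 9 cerebellar DEGs fell to 3 (without SCA1 KI library 1 or 3) or 5 (without WT library 2 or SCA1 KI library 5).

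Potassium channel genes set by muscarinic receptors were among the DEGs of the SCA1 KI cortex, lower than in WT. The M-channel genes Kcnq5 and Kcnq3 had LFCs of −0.76 and −0.64, and the inward rectifier genes Kcnj6, Kcnj9 and Kcnj3 had LFCs of −0.66, −0.62 and −0.28. Kcnq5 was also lower in the cerebellum (LFC −1.20). The interaction passed for Kcnj6 (−0.94, adjusted p = 0.00227) and Kcnj3 (−0.59, adjusted p = 0.0104), whose cerebellar LFCs were 0.28 and 0.31 and did not pass the test.

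Of 10 genes that pass on the muscarinic signal, 2 phospholipase C genes were DEGs in the cortex, both lower, a share near that of all genes (10.8% lower). Plcb1 had 18234 ± 216 normalized counts (SD, n = 3) in WT and 11258 ± 509 in SCA1 KI (LFC −0.70, adjusted p = 1.43e-05), and Plcb4 had 3666 ± 94.0 and 2358 ± 69.6 (LFC −0.64, adjusted p = 4.26e-05). In the cerebellum Plcb3 was the single DEG among the 10 (4.44% of all genes were lower), at 2697 ± 230.3 normalized counts in WT and 1436 ± 17.4 in SCA1 KI (LFC −0.90, adjusted p = 9.18e-05). The G protein genes Gnaq, Gna11, Gnai1, Gnai2, Gnai3 and Gnao1 were not DEGs in either region. The interaction passed for Plcb1 (−0.84), Plcb4 (−0.59) and Plcb3 (0.72).

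Ly6 proteins sit on nicotinic receptors and tune them. Of 7 tested genes of these proteins and of receptor chaperones, 4 were DEGs in the cortex and 2 in the cerebellum, all lower. Over all genes, 10.8% were lower in the cortex and 4.44% in the cerebellum. Lynx1, a brake on nicotinic receptors, had 18618 ± 1079 normalized counts (SD, n = 3) in WT and 10177 ± 357 in SCA1 KI cortices (LFC −0.87, adjusted p = 2.41e-06). Ly6e (−0.71), Lypd6 (−0.70) and Lypd1 (−0.56) were also DEGs in the cortex. In the cerebellum Ly6h (−0.76) and Lypd6b (−1.67) were DEGs, while Lynx1 (0.10), Ly6e (0.21), Lypd6 (−0.035) and Lypd1 (−0.33) did not pass, nor did Lypd6b (−0.46) in the cortex. Ly6h (0.44, adjusted p = 0.114) and the chaperone gene Ric3 (0.098, adjusted p = 0.213) did not pass in the cortex either. For both, every SCA1 KI cortex library lay above every WT cortex library. The interaction passed for Lynx1 (−0.97, adjusted p = 5.91e-05), Ly6e (−0.92), Lypd6 (−0.66) and, in the other direction, Ly6h (1.20), and not for Lypd1 (−0.22, adjusted p = 0.578) or Lypd6b (1.22, adjusted p = 0.163).

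Several other nicotinic subunits, all of low count, fell as well. Chrnb3 lay between 182 and 196 normalized counts in WT and between 29.6 and 46.9 in SCA1 KI cortex libraries (LFC −2.36, adjusted p = 0.00129), and Chrnb1 had an LFC of −0.90 there. In the cerebellum Chrnb4 lay between 75.7 and 78.0 in WT and between 2.53 and 10.6 in SCA1 KI libraries (LFC −3.72, adjusted p = 0.00782), and Chrna3 between 67.2 and 142 in WT and between 5.06 and 16.5 in SCA1 KI libraries (LFC −3.52, adjusted p = 0.0126). Chrna6 (−1.95) and Chrnb3 (−1.57) were also DEGs in the cerebellum. Chrna3 and Chrnb4 are known for their high expression in the medial habenula. Of the 8 thalamus and habenula markers, 6 were lower in the same SCA1 KI libraries. Pou4f1 (means of 89.7 in WT and 6.68 in SCA1 KI cerebella) and Tac2 (19.4 and 2.68) were among the 6. Gpr151, also on that list and of low count, had means of 6.19 and 4.84 and was not called, nor was Prkcd. The part of habenular tissue in the falls of Chrna3 and Chrnb4 was not tested. The interaction passed for Chrnb4 (3.81, adjusted p = 0.0326).

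Genes that make, load and take up the transmitter were scarce in both tissues. Chat, which synthesizes acetylcholine, lay between 8.87 and 42.3 normalized counts in the cortex and between 0 and 28.3 in the cerebellum, and neither Chat nor the choline transporter gene Slc5a7 was called by genotype in either region by these tools. Slc18a3 was under the minimum mean of 10 normalized counts and was not tested. Of the genes Bche, Prima1 and Colq, which encode the related butyrylcholinesterase and anchors of the enzymes, 0 were called by limma, edgeR or DESeq2 by genotype in either region, and 0 of them had an unadjusted p under 0.05.

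**Figure D5:**
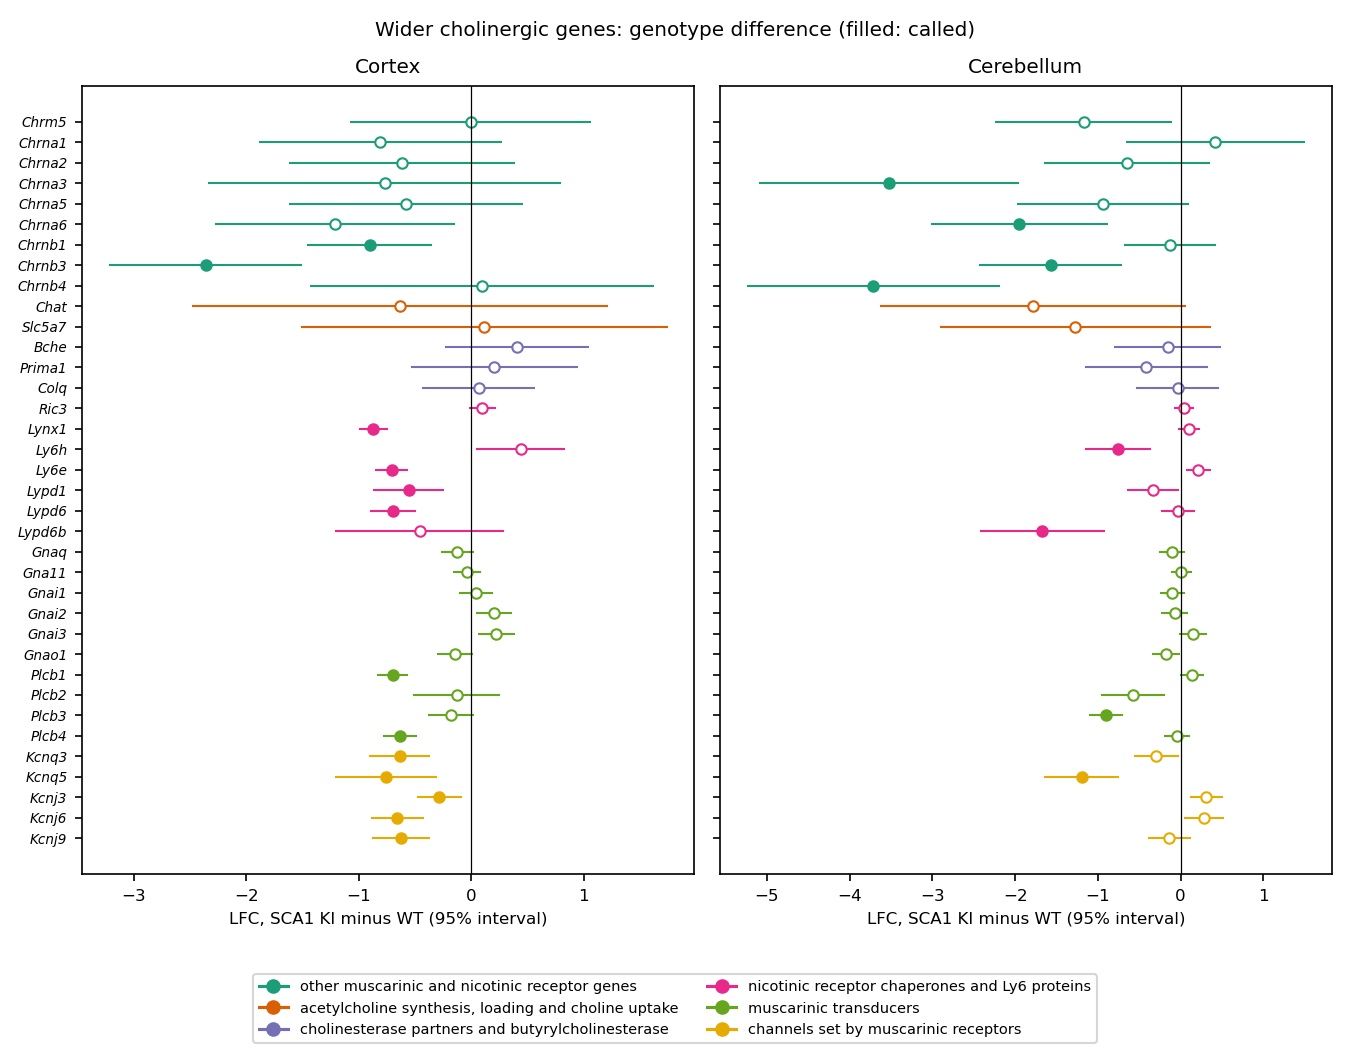
LFC of SCA1 KI against WT (log2 scale) of tested genes of the wider cholinergic system in the cortex and in the cerebellum, grouped by role, with filled points for DEGs. All DEGs drawn lie to the left of 0 in both regions.

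The genes whose levels ran most alike to each of the 8 over the 12 libraries were found by Pearson's r on log2(normalized count + 1) among 12663 genes, as a description without a test. The highest r was 0.999 for Chrm1 (Ephb6), 0.998 for Chrm4 (Gcnt2), 0.997 for Chrm3 (Kctd16), 0.992 for Chrnb2 (Tdrkh), 0.988 for Chrna4 (Gfra1), 0.973 for Chrm2 (Rhbdl3) and 0.968 for Chrna7 (Cntnap2). Ache had the lowest such r, 0.918 with Gprasp2 and 0.904 with Zfp503. The 12 libraries fall into groups of region and genotype, whose differences enter these values. With the group means removed the r of the 16 closest pairs ranged from 0.677 (Chrm4 with Mmd) to 0.915 (Chrna7 with Epha10).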

How the data were processed

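Poly-adenylated RNA of whole cortex and cerebellum was sequenced by the authors as paired ends, aligned with STAR to mm10, counted per gene with featureCounts and normalized with DESeq2, whose versions are not given in the sources used here. The deposited signal is a table of normalized counts, reads divided by 1 size factor per library. In every library 100% of the values were whole reads (tolerance 0.01), and these reads were recovered for edgeR and DESeq2. The labels list males and the methods both sexes. The chi-square per gene between replicate libraries was 7.43 to 36.0, so each was counted as a library of its own.

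The comparisons were fitted with limma 3.58.1 (empirical Bayes with trend, in R 4.3.3) on log2(normalized count + 1), which understates the change of low genes. The fit used 12 libraries, 4 group means and 15369 genes, leaving out 390 whose mean was under 10, with Benjamini-Hochberg adjustment. RPKM was computed from the recovered reads and exon lengths of GENCODE vM21 (15009 symbols matched). The fit was tested on simulated data.

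Alternatives were a pseudocount of 0.5 or of 5, the minimum mean removed or raised to 100, edgeR 4.0.16 (quasi-likelihood test), DESeq2 1.42.0, centring on library medians, removal of trends on length and GC content, each region fitted on its own, the limit on the LFC removed or raised to 1, and 12 fits without 1 library. Leaving out 3 libraries together was added after seeing the data. The genes named were the 8 genes, the DEGs among lists of cholinergic genes by role, the 2 genes most like each of the 8 with a mean of at least 100, and Atxn1, with markers of tissues and cells beside them. The 8 genes and the lists were chosen with earlier results of these data known. Other markers and genes that were not DEGs were named after their values were seen. Some results on the lists are not reported here.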

Additional observations from a re-analysis of the deposited data

Results flagged for a closer look

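For 3 of the 8 genes the change between SCA1 KI and WT differed between the regions, by the interaction term of limma over all 12 libraries. The cortical LFC minus the cerebellar LFC was 0.83 for Ache (adjusted p = 0.00754), with LFCs of 0.62 in the cortex and −0.20 in the cerebellum. For Chrm2 it was 1.25 (adjusted p = 0.0393), with LFCs of 0.0052 and −1.24. For Chrnb2 it was 0.34 (adjusted p = 0.0376), with LFCs of 0.28 and −0.064. Ache was higher in 3 of 3 SCA1 KI cortex libraries than in any WT cortex library, and Chrm2 lower in 3 of 3 SCA1 KI cerebellum libraries than in any WT cerebellum library. Of the 12 fits that each left out 1 library, Ache passed in all 12, whereas Chrnb2 did not pass in 9 and Chrm2 did not pass in 8. The cause of these differences was not tested.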

How the results depend on the processing

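With a limit of 1 on the absolute LFC the DEGs among the 8 genes fell from 4 to 0 in the cortex, from 7 to 4 between the WT regions and from 8 to 5 between the SCA1 KI regions, and those of the wider cholinergic system from 14 to 1 in the cortex and from 25 to 15 between the SCA1 KI regions, since a higher limit passes fewer genes. The 9 wider cholinergic DEGs of the cerebellum became 5 with a minimum mean of 100, 5 with the region fitted on its own and 5 without cortical WT library B, cortical SCA1 KI library F and cerebellar WT library 2 together, an alternative chosen after seeing the data. Leaving out 1 library gave 2 (without WT library D) to 6 DEGs among the 8 genes in the cortex, 3 to 5 in the cerebellum, and 1 to 3 in the interaction, with 1 left without cortical WT library D, cortical SCA1 KI library E or F, or any cerebellar SCA1 KI library. It gave 3 to 9 wider cholinergic DEGs in the cerebellum, with 3 left without SCA1 KI library 1 or 3 and 5 without WT library 2 or SCA1 KI library 5. Chrm2 in the cortex changed sign near 0, at −0.00589 with DESeq2, −0.064 without the 3 libraries and −0.19 to 0.15 without 1 library. Chrnb2 in the cerebellum was 0.019 with trends on length and GC content removed, and the interaction of Chrna7 ran from −0.26 to 0.15 without 1 library. The cause of these changes was not tested. No paired analysis was possible because the library names carry letters and numbers of their own and not the replicate numbers of the labels. Reads were fewest, and the counting error thus widest, in the cerebellum. There Chrm1 and Chrm4 had 18.5 to 82.2 normalized counts, and Chrm3 had 58.4 to 75.8 in the SCA1 KI libraries.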
